A study of Mus musculus with 2 samples.

Results

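A set of 32 type I interferon-stimulated genes was followed in CD45+ immune cells sorted from B16 melanomas of mice. The genes were chosen by symbol, as known interferon-induced genes, and all 32 were among the 31253 features of the count tables. They were Isg15, Isg20, Ifit1, Ifit2, Ifit3, Ifit3b, Oasl1, Oasl2, Oas2, Oas3, Rsad2, Usp18, Ifi44, Ifi204, Ifi203, Ifi205, Ifi27l2a, Ifi35, Rtp4, Bst2, Xaf1, Ly6a, Cmpk2, Slfn2, Slfn4, Slfn5, Zbp1, Trim30a, Ifih1, Dhx58, Parp14 and Herc6. Their levels were described in T cells, dendritic cells (DCs) and macrophages, and between both tumor groups.

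The shSdc1 group carried B16 tumors whose cells hold a hairpin RNA against Sdc1, which encodes the proteoglycan syndecan-1. The shRFP group carried B16 tumors with a control hairpin. Hosts of both groups were wild-type mice that had first received irradiated GM-CSF-producing B16 cells in the other flank. Tumor cells were injected 12 days after this vaccine, and tumors were taken 16 days after that. Live CD45+ cells of 6 pooled tumors per group gave 1 droplet library, so each group is 1 library, without replicates, without a value per mouse and without tests. The genotype label of the shSdc1 library reads knock out, although the protocol speaks of injected shSdc1 tumor cells and wild-type hosts. Sdc1 had 76 UMIs (unique molecular identifiers, 1 per captured RNA molecule) in shSdc1 and 102 in shRFP, counted in host immune cells and so no measure of the knockdown.

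The libraries kept 5313 cells in shSdc1 and 4983 in shRFP, with a median of 593 UMIs per cell in shSdc1 and 650 in shRFP. T-like cells numbered 1741 in shSdc1 and 1073 in shRFP, DC-like cells 576 in shSdc1 and 610 in shRFP, and monocyte/macrophage-like cells 2589 in shSdc1 and 3055 in shRFP. Clusters were made without the 32 genes and other interferon genes, and they were named without the 32 genes. The 14 macrophage markers summed to 37731 CPM in shSdc1 and 25956 CPM in shRFP in monocyte/macrophage-like cells, where CPM is UMIs per 1000000 UMIs of the class. They summed to 2788 CPM in shSdc1 and 2919 CPM in shRFP in DC-like cells and to 783 CPM in shSdc1 and 740.3 CPM in shRFP in T-like cells, in which 13 of the 14 were seen in both libraries. The 10 T cell markers summed to 6590 CPM in shSdc1 and 6399 CPM in shRFP in T-like cells. The part of other cells' RNA in the values below was not tested, apart from the cells and clusters left out where stated. Among kept cells 17 barcode sequences occurred in both libraries, and these were treated as separate cells.

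Type I interferons are secreted proteins that bind a receptor made of Ifnar1 and Ifnar2. The kinases Jak1 and Tyk2 then activate a transcription factor complex that holds Irf9 and binds the interferon-stimulated response element (ISRE) of target promoters. The targets encode antiviral effectors, sensors of foreign nucleic acid and feedback inhibitors. In tumors this pathway is known for its role in the priming of T cells by DCs. Many of the same genes also respond to interferon gamma.

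Promoters of the members are shown because they carry the letters through which interferon is known to act. RefSeq windows (GRCm38.p6, 250 bases before the start) were matched for 23 of the 32 genes. The ISRE core GAAANNGAAA, on either strand, was in 11 of these 23 genes (47.8%), against 936 of 27025 genes with a window (3.46%). The 11 were Isg15, Ifit1, Ifit3, Ifit3b, Oas3, Rsad2, Ifi203, Ifi205, Bst2, Slfn5 and Trim30a. Without its last base, as GAAANNGAA, it was in 12 of 23 (52.2%), against 8.18% of all genes, and these matches include those of the longer core. The gamma-activated site TTCNNNGAA was in 3 of 23 (13.0%), against 8.13% of all genes. A match describes the letters of the window, and binding was not measured. The last 120 bases before the start are given 5′ to 3′ along the gene for 4 genes with the core, in capitals (as its reverse complement where it lies on the other strand), and for Slfn2, where no core was found.
Isg15 promoter, chr4:156200819-156200938, minus strand: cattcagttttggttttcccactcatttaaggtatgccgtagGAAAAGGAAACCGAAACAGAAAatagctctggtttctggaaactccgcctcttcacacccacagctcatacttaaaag
Ifit1 promoter, chr19:34640769-34640888, plus strand: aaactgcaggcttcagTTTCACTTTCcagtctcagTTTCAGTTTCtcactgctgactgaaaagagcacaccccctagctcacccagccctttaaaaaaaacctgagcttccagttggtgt
Rsad2 promoter, chr12:26456453-26456572, minus strand: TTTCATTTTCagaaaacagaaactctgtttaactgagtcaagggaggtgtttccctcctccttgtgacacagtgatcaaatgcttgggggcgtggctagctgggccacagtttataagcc
Oas3 promoter, chr5:120777660-120777779, minus strand: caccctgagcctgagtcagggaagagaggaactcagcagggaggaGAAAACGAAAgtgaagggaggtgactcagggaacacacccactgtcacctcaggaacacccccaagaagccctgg
Slfn2 promoter, chr11:83064992-83065111, plus strand: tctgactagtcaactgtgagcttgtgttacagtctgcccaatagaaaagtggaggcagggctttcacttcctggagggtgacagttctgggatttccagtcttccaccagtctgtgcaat
In Isg15 the 3 cores overlap each other, and Ifit1 has 2 separate ones.

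Several members are neighbours in the genome (GRCm38, GENCODE M21). Ifit2, Ifit3, Ifit3b and Ifit1 lie on chromosome 19 between 34550694 and 34650009. Slfn5, Slfn2 and Slfn4 lie on chromosome 11 between 82951349 and 83190216, and Ifi204, Ifi203 and Ifi205 on chromosome 1 between 173747293 and 174031810. Rsad2 and Cmpk2 lie on chromosome 12 between 26442746 and 26479837. Oasl2 with Oasl1, and Oas2 with Oas3, are neighbours on chromosome 5. Genes within the Ifit, Ifi200, Schlafen and Oas families resemble each other, so reads that match several copies make their single values less certain.

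Among the 3 large classes, monocyte/macrophage-like cells held the most RNA of these genes and T-like cells led for a few of them. The 32 genes together had 4662 CPM in shSdc1 and 4336 CPM in shRFP in monocyte/macrophage-like cells, 3884 CPM in shSdc1 and 2833 CPM in shRFP in DC-like cells and 4016 CPM in shSdc1 and 2845 CPM in shRFP in T-like cells. In both libraries 9 genes were higher in monocyte/macrophage-like cells than in either other class, with intervals of the ratio apart from 1. These were Ifit1, Oasl1, Oasl2, Rsad2, Ifi204, Rtp4, Bst2, Slfn2 and Slfn4. Isg20 and Ly6a were highest in T-like cells by the same measure, and Ifi205 and Ifi35 in DC-like cells. For 11 genes the same class was highest in both libraries with an interval that reached 1, and for 8 the highest class differed between libraries. No share over all genes stands beside these counts, so they do not set the members apart. Monocyte/macrophage-like cells also held the most UMIs of the 3 classes, 2124021 in shSdc1 and 2591429 in shRFP.

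**Figure D1:**
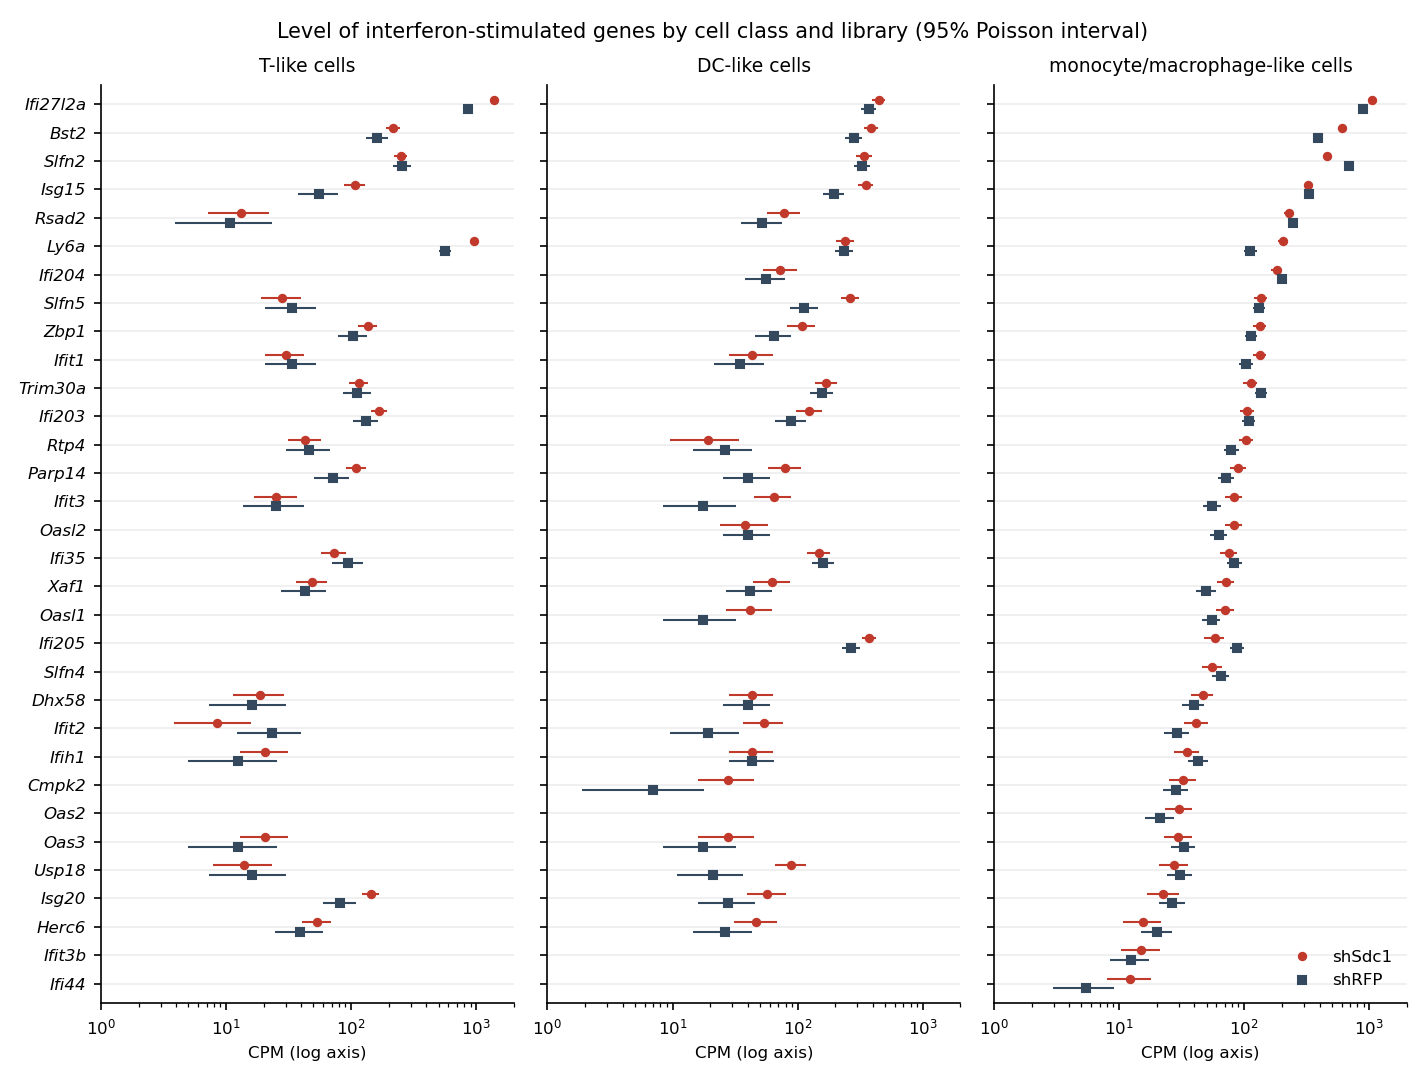
Level of each member in CPM (log axis) in the 3 classes of the shSdc1 (red circles) and shRFP (dark squares) libraries, with 95% Poisson intervals, for members whose UMIs of both libraries sum to 20 or more. Rsad2 lies at 226 CPM in shSdc1 and 243 CPM in shRFP in monocyte/macrophage-like cells and at 13.1 CPM in shSdc1 and 10.7 CPM in shRFP in T-like cells.

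Rsad2 encodes viperin, an enzyme that makes a chain-terminating nucleotide. It had 226 CPM in shSdc1 and 243 CPM in shRFP in monocyte/macrophage-like cells, 78.0 CPM in shSdc1 and 52.3 CPM in shRFP in DC-like cells and 13.1 CPM in shSdc1 and 10.7 CPM in shRFP in T-like cells, so both libraries gave the same order of classes. Ly6a, a surface protein (Sca-1) carried by activated T cells, had 952 CPM in shSdc1 and 562 CPM in shRFP in T-like cells and 206 CPM in shSdc1 and 112 CPM in shRFP in monocyte/macrophage-like cells. Ifi205, of the Ifi200 family of nuclear proteins, had 373 CPM in shSdc1 and 268 CPM in shRFP in DC-like cells and 1 UMI in shSdc1 and 2 in shRFP in T-like cells. These orders between classes hold for 1 gene at a time, since 3' UMI counts do not compare levels between genes.

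Between tumor groups, the question was how interferon-stimulated genes of the immune infiltrate differ when tumor cells carry the Sdc1 hairpin. A gene was counted as higher or lower when its CPM ratio, shSdc1 over shRFP, was past 1.5-fold and its UMIs summed to 20 or more over both libraries. Brackets give 95% intervals for counting error alone. They leave out differences between mice, tumors and library preparations. In DC-like cells 12 of 28 measured members were higher and 0 lower, beside 11.7% higher and 11.8% lower among all measured genes. In T-like cells 7 of 23 were higher and 1 lower, beside 12.6% and 7.32% of all genes. In monocyte/macrophage-like cells 3 of 32 were higher and 1 lower, beside 14.1% and 8.64%, so the share of members higher was no larger than that of all genes. The median log2 ratio of the members was 0.53 in DC-like cells, 0.30 in T-like cells and 0.21 in monocyte/macrophage-like cells, beside 0.01, 0.07 and 0.07 over all measured genes. Fewer cells with the RNA and less RNA per cell cannot be told apart in these sums. Markers of the 2 conventional DC types also differed in DC-like cells. The 7 conventional DC 1 markers summed to 2817 CPM in shSdc1 and 1997 CPM in shRFP, a ratio of 1.41 [1.31 to 1.52], and the 8 conventional DC 2 markers to 1240 CPM in shSdc1 and 1511 CPM in shRFP, a ratio of 0.820 [0.742 to 0.907]. The members summed to a ratio of 1.37 [1.29 to 1.46] over DC-like cells, to 1.44 [1.29 to 1.61] inside the conventional DC 1-like sub-cluster and to 1.21 [1.07 to 1.36] inside the larger conventional DC 2-like one.

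**Figure D2:**
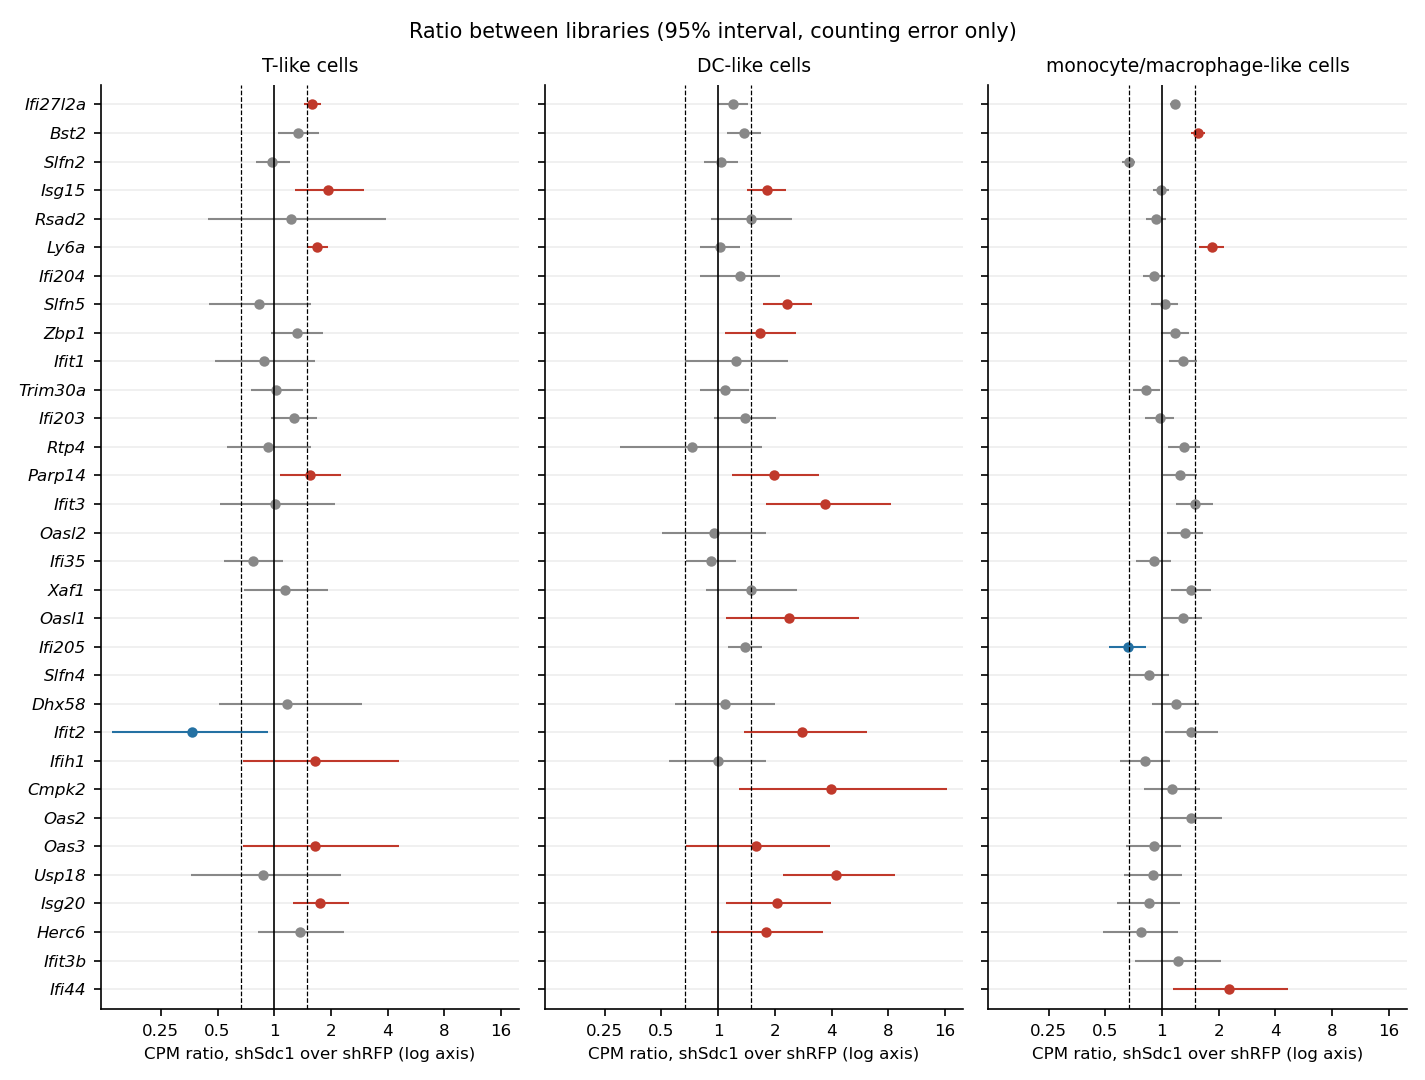
CPM ratio, shSdc1 over shRFP (log axis), of each member in the 3 classes, with 95% intervals for counting error; dashed lines mark 1.5-fold either way, red points are higher and blue points lower past it. In DC-like cells 12 points are red and none is blue, and in monocyte/macrophage-like cells 3 are red and 1 is blue.

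In DC-like cells all 3 genes of the Isg15 system were past the fold. Isg15, a ubiquitin-like protein that is attached to other proteins, had 202 UMIs (350.2 CPM) in shSdc1 and 111 UMIs (193 CPM) in shRFP, a ratio of 1.81 [1.43 to 2.30]. Usp18, which removes Isg15 and damps receptor signalling, had 51 UMIs (88.4 CPM) in shSdc1 and 12 UMIs (20.9 CPM) in shRFP, a ratio of 4.23 [2.22 to 8.71]. Herc6, the ligase that attaches Isg15 in mice, had 27 UMIs in shSdc1 and 15 in shRFP, a ratio of 1.79 [0.919 to 3.62]. The interval of Herc6 reached 1 and those of Isg15 and Usp18 did not.

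Ifit proteins bind foreign RNA and block its translation. Ifit3 had 37 UMIs (64.1 CPM) in shSdc1 and 10 UMIs (17.4 CPM) in shRFP in DC-like cells, a ratio of 3.68 [1.79 to 8.30]. Ifit2 had 31 UMIs in shSdc1 and 11 in shRFP, a ratio of 2.80 [1.37 to 6.18], and 1 cell held 45.5% of its shRFP UMIs. Ifit1 was within the fold, at 25 UMIs in shSdc1 and 20 in shRFP and a ratio of 1.24 [0.663 to 2.36]. Ifit3b stayed below 20 UMIs in both libraries together.

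Among effectors that act on nucleotides or membranes, Cmpk2 and Isg20 were past the fold in DC-like cells. Cmpk2, a mitochondrial nucleotide kinase encoded beside Rsad2, had 16 UMIs in shSdc1 and 4 in shRFP, a ratio of 3.98 [1.28 to 16.4]. Isg20, an RNA exonuclease, had 33 UMIs in shSdc1 and 16 in shRFP, a ratio of 2.05 [1.10 to 3.99]. Rsad2 stopped just short of the fold with 45 UMIs in shSdc1 and 30 in shRFP, a ratio of 1.49 [0.920 to 2.45]. Bst2, or tetherin, which holds budding virus at the cell surface, had 387 CPM in shSdc1 and 282 CPM in shRFP, a ratio of 1.37 [1.11 to 1.69]. Its interval lay above 1, and its ratio was within the fold.

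Neighbouring Schlafen genes, which restrain growth of immune cells and viruses, differed from each other in DC-like cells. Slfn5 had 152 UMIs (264 CPM) in shSdc1 and 65 UMIs (113 CPM) in shRFP, a ratio of 2.33 [1.73 to 3.16], while Slfn2 had 339.8 CPM in shSdc1 and 328 CPM in shRFP, a ratio of 1.04 [0.845 to 1.27]. Among the 2-5A synthetase family, whose products activate RNase L, Oas3 had 16 UMIs in shSdc1 and 10 in shRFP, a ratio of 1.59 [0.679 to 3.92]. Oasl1, a relative that in mice restrains translation of Irf7, had 24 UMIs in shSdc1 and 10 in shRFP, a ratio of 2.39 [1.10 to 5.59], and Oasl2 had 22 UMIs in shSdc1 and 23 in shRFP. Of 6 measured nucleic acid sensors only Zbp1, which senses Z-form nucleic acid, was past the fold, with 62 UMIs in shSdc1 and 37 in shRFP and a ratio of 1.67 [1.09 to 2.58]. The RNA sensor Ifih1 had 25 UMIs in shSdc1 and 25 in shRFP, and its regulator Dhx58 had 25 UMIs in shSdc1 and 23 in shRFP.

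The remaining members of DC-like cells were mostly within the fold. Parp14, an ADP-ribosyltransferase, was past it with 46 UMIs in shSdc1 and 23 in shRFP, a ratio of 1.99 [1.18 to 3.44]. Ifi205 had a ratio of 1.39 [1.12 to 1.72], Ifi27l2a one of 1.20 [0.993 to 1.44] and Ly6a one of 1.02 [0.803 to 1.31]. Xaf1 had 1.49, Ifi35 0.919 and Rtp4 0.730 as ratios. Oas2, Ifi44 and Slfn4 were below 20 UMIs.

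The higher members were also seen inside 1 kind of DC. The conventional DC 1-like sub-cluster, led by Xcr1 and Gcsam, held 193 cells in shSdc1 and 170 in shRFP, and 10 of 16 measured members were higher there, beside 15.5% of genes, and 0 were lower. Isg15 had 75 UMIs in shSdc1 and 16 in shRFP in it, a ratio of 3.27 [1.89 to 6.01]. Usp18 had 23 UMIs in shSdc1 and 4 in shRFP, Slfn5 had 73 UMIs in shSdc1 and 22 in shRFP, and Zbp1 had 33 UMIs in shSdc1 and 9 in shRFP. Ifi205 had 711 CPM in shSdc1 and 750.2 CPM in shRFP in the same cells, a ratio of 0.948. In the conventional DC 2-like sub-cluster led by Mgl2 and Pgf, with 140 cells in shSdc1 and 251 in shRFP, 5 of 16 members were higher, beside 11.9% of genes, and 1 was lower, beside 15.3%.

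A further DC sub-cluster of 50 cells in shSdc1 and 30 in shRFP was led by the macrophage genes C1qa and Apoe, and the marker rule called it monocyte or macrophage. It is part of the DC-like values above. Its members summed to 13406 CPM in shSdc1 and 9815 CPM in shRFP, above each other DC sub-cluster in both libraries. Without it 10 of 25 measured members were higher and 0 lower, beside 12.2% and 11.8% of genes. The median log2 ratio was 0.41 without it, and Usp18 had a ratio of 3.96 and Isg15 of 1.70. The ratio of Ifit3 was then 7.59 and that of Ifit2 10.1, both larger than with it. Both rest on few UMIs, since all DC-like cells of shRFP held only 10 of Ifit3 and 11 of Ifit2. They do not show a larger difference outside this sub-cluster.

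In T-like cells Ifi27l2a, Ly6a, Isg15, Isg20, Parp14, Oas3 and Ifih1 were past the fold in the higher direction, and no Ifit gene was. Ifi27l2a, a small interferon-induced protein, had 1473 UMIs (1378 CPM) in shSdc1 and 487 UMIs (867 CPM) in shRFP, a ratio of 1.59 [1.43 to 1.77]. Ly6a had 1017 UMIs (952 CPM) in shSdc1 and 316 UMIs (562 CPM) in shRFP, a ratio of 1.69 [1.49 to 1.93]. Isg15 had 114 UMIs (107 CPM) in shSdc1 and 31 UMIs (55.2 CPM) in shRFP, a ratio of 1.93 [1.29 to 2.98]. All 3 intervals lay above 1.

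Isg20 had 153 UMIs (143 CPM) in shSdc1 and 46 UMIs (81.9 CPM) in shRFP in T-like cells, a ratio of 1.75 [1.25 to 2.49], and Parp14 had 117 UMIs (109 CPM) in shSdc1 and 40 UMIs (71.2 CPM) in shRFP, a ratio of 1.54 [1.07 to 2.26]. Oas3 and Ifih1 each had 22 UMIs in shSdc1 and 7 in shRFP, a ratio of 1.65 [0.682 to 4.58] whose interval reached 1. Ifit2 was lower, with 9 UMIs (8.42 CPM) in shSdc1 and 13 UMIs (23.1 CPM) in shRFP and a ratio of 0.364 [0.137 to 0.921]. Ifit1, Ifit3, Rsad2 and Usp18 had ratios of 0.886, 1.01, 1.23 and 0.876, on 20 to 51 UMIs in both libraries together. Bst2 had 216 CPM in shSdc1 and 162 CPM in shRFP, Ifi203 had 167 CPM in shSdc1 and 132 CPM in shRFP and Slfn2 had 249 CPM in shSdc1 and 254 CPM in shRFP, all within the fold. Ifit3b, Oasl1, Oasl2, Oas2, Ifi44, Ifi204, Ifi205, Cmpk2 and Slfn4 stayed below 20 UMIs. Without the 173 shSdc1 and 72 shRFP T-like cells with 2 or more macrophage marker UMIs, 6 of 20 measured members were higher and 0 lower, beside 13.1% and 7.65% of genes. Isg15 had a ratio of 2.05 without them. Among cells with at least 500 genes, where only a cluster high in Foxp3 took the T-like name, 3 of 11 measured members were higher and 0 lower, beside 17.5% and 11.4% of genes. Isg20 then had a ratio of 0.915 and Oas3 of 0.337.

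Among T-like clusters the naive-like one had the largest share of members past the fold. It was led by Dapl1, Lef1 and Tcf7 and held 317 cells in shSdc1 and 421 in shRFP, which was 18.2% of T-like cells in shSdc1 and 39.2% in shRFP. In it 8 of 11 measured members were higher, beside 18.0% of genes. Isg15 had 23 UMIs in shSdc1 and 5 in shRFP, a ratio of 6.38 [2.37 to 21.5]. Ifi27l2a had 931 CPM in shSdc1 and 296 CPM in shRFP, a ratio of 3.15 [2.22 to 4.52], and Ly6a had 572 CPM in shSdc1 and 246 CPM in shRFP, a ratio of 2.32 [1.55 to 3.53]. The 32 genes together had 4108 CPM in shSdc1 and 2095 CPM in shRFP, a ratio of 1.96 [1.70 to 2.26].

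In the CD8-like cluster, led by Gzmk, Ccl1 and Ifng, 3 of 14 members were higher, beside 16.1% of genes, 1 was lower, beside 10.9%, and the summed ratio was 1.39 [1.24 to 1.55]. Ly6a (2.45), Herc6 (2.26) and Isg15 (1.55) were the higher ones. In the regulatory-like cluster, led by Foxp3, 3 of 16 were higher, beside 14.2% of genes, 2 were lower, beside 9.87%, and the summed ratio was 1.22 [1.13 to 1.32]. There Parp14 (1.69), Bst2 (1.56) and Isg20 (1.56) were higher, and Ifi35 (0.644) and Slfn5 (0.597) lower. The difference between these clusters was not tested.

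In monocyte/macrophage-like cells as a class, Ly6a, Bst2 and Ifi44 were higher and Ifi205 lower. Ly6a had 437 UMIs (206 CPM) in shSdc1 and 290 UMIs (112 CPM) in shRFP, a ratio of 1.84 [1.58 to 2.14]. Bst2 had 1282 UMIs (604 CPM) in shSdc1 and 1008 UMIs (389 CPM) in shRFP, a ratio of 1.55 [1.43 to 1.69]. Ifi44, an interferon-induced GTPase-like protein, had 26 UMIs in shSdc1 and 14 in shRFP, a ratio of 2.27 [1.14 to 4.69]. The intervals of these 3 ratios lay above 1.

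Ifi205 had 123 UMIs (57.9 CPM) in shSdc1 and 227 UMIs (87.6 CPM) in shRFP, a ratio of 0.661 [0.526 to 0.827], and Slfn2 stopped just short of the fold in the same direction with 457 CPM in shSdc1 and 683 CPM in shRFP and a ratio of 0.668 [0.617 to 0.723]. Isg15 had 326 CPM in shSdc1 and 330.3 CPM in shRFP, a ratio of 0.988 [0.892 to 1.09]. Rsad2 had a ratio of 0.930 [0.824 to 1.05] and Ifi27l2a one of 1.18 [1.11 to 1.25]. In the Ifit family Ifit3 had 175 UMIs in shSdc1 and 143 in shRFP, a ratio of 1.49 [1.19 to 1.88], Ifit1 one of 1.29 [1.09 to 1.53] and Ifit2 one of 1.43 [1.04 to 1.97], all within the fold with intervals above 1. Among cells with at least 500 genes the class was made of other clusters, since 3 macrophage-gene clusters stayed unnamed and the Chil3-led cells took the neutrophil name. Among the unnamed ones was a cluster led by Ifit genes, with 99 cells in shSdc1 and 28 in shRFP. In the class so made, 1 of 30 measured members was higher and 5 lower, beside 12.8% and 12.0% of genes.

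Within the 6 macrophage clusters, however, the members together were higher in shSdc1 each time. Cluster 6, led by Hp, Ifitm6 and Chil3, had 7909 CPM in shSdc1 and 4864 CPM in shRFP, a ratio of 1.63 [1.46 to 1.81]. Cluster 0, led by Il1a and Cxcl1, had 6814 CPM in shSdc1 and 5811 CPM in shRFP, a ratio of 1.17 [1.11 to 1.24]. Cluster 2 (led by Ctsk and Hspb1) had a ratio of 1.31 [1.22 to 1.41], cluster 3 (Retnla and Lyz1) of 1.46 [1.29 to 1.65], cluster 4 (Ccl12 and Gdf15) of 1.29 [1.22 to 1.36] and cluster 5 (Cadm1 and Cd72) of 1.36 [1.25 to 1.48]. Each of the 6 intervals lay above 1, while the ratio of the whole class was 1.08 [1.05 to 1.10]. Abundant members weigh most in these sums. Over the class Ifi27l2a alone gave 2219 of 9902 member UMIs in shSdc1 and 2300 of 11237 in shRFP.

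The clusters held unlike shares of the class in the libraries. Clusters 0 and 6 had the highest summed levels in both libraries. Cluster 0 was 11.6% of the class in shSdc1 and 30.4% in shRFP, and cluster 6 was 4.02% in shSdc1 and 19.3% in shRFP. Clusters 4 and 5 had lower summed levels. Cluster 4 was 27.0% in shSdc1 and 17.0% in shRFP, and cluster 5 was 35.1% in shSdc1 and 9.82% in shRFP.

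**Figure D3:**
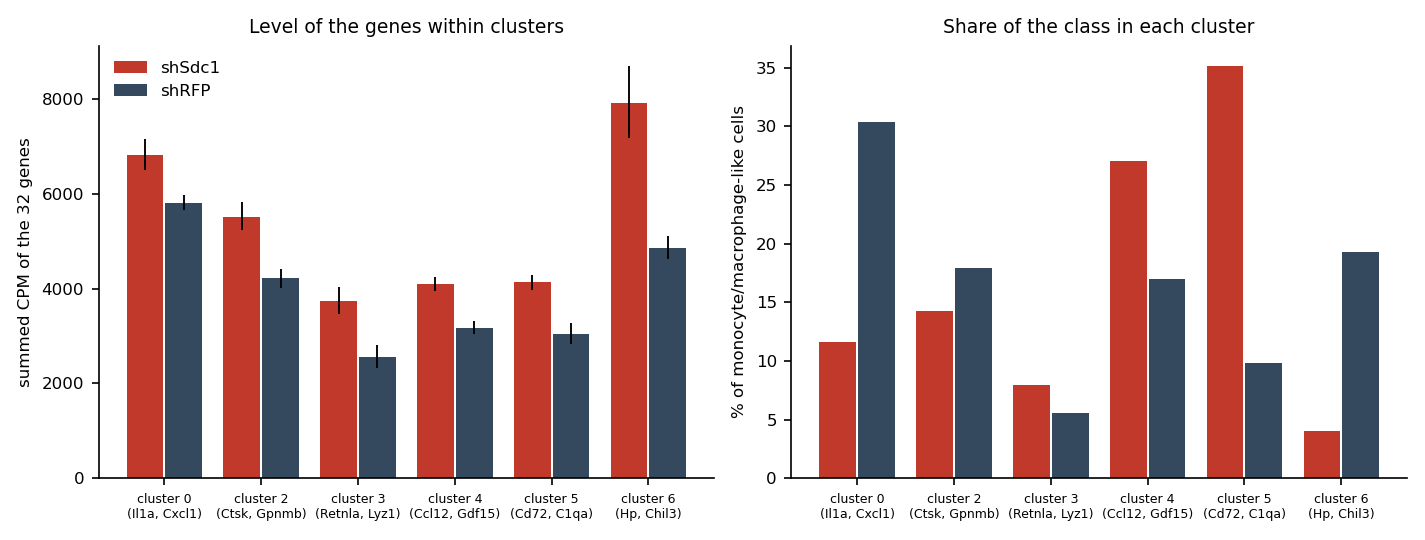
Left, summed CPM of the 32 genes in each monocyte/macrophage-like cluster of shSdc1 (red) and shRFP (dark), with 95% Poisson intervals; right, percent of monocyte/macrophage-like cells in each cluster. The shSdc1 bar is the higher one in all 6 clusters on the left, and clusters 0 and 6 hold a smaller share in shSdc1 on the right.

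Members past the fold in the higher direction were 5 of 30 in cluster 0 (beside 12.1% of genes), 13 of 28 in cluster 2 (16.9%), 7 of 15 in cluster 3 (13.5%), 14 of 29 in cluster 4 (10.4%), 8 of 24 in cluster 5 (17.5%) and 12 of 21 in cluster 6 (15.4%). In the lower direction 1 member each was past it in clusters 0 and 5, beside 15.0% and 12.2% of genes, and 0 in the other clusters. With the clusters of the class weighted alike in both libraries, 12 of 32 members were higher and 0 lower, beside 11.1% of genes higher and 9.68% lower, and the median log2 ratio was 0.52. Ifit1 then had a ratio of 1.88 weighted and 1.29 as summed, and Rsad2 of 1.46 weighted and 0.930 as summed. Ifi205 had 1.31 weighted and 0.661 as summed, so its direction turned round. The same weighting gave 9 of 23 higher and 1 lower in T-like cells, beside 13.5% and 8.77% of genes, and 11 of 28 higher and 1 lower in DC-like cells, beside 15.4% and 14.5%.

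Single members differed among the macrophage clusters. In cluster 4 Isg15 had 259.8 CPM in shSdc1 and 126 CPM in shRFP, a ratio of 2.06 [1.58 to 2.71], and Oasl2 had 79.8 CPM in shSdc1 and 22.7 CPM in shRFP, a ratio of 3.52 [1.95 to 6.81]. In cluster 3 Ifit1 had 24 UMIs in shSdc1 and 5 in shRFP, a ratio of 4.82 [1.80 to 16.2]. Cluster 5 was the 1 macrophage cluster with Rsad2 lower, at 74.9 CPM in shSdc1 and 156 CPM in shRFP and a ratio of 0.479 [0.303 to 0.762]. In cluster 6 Rsad2 had 346 CPM in shSdc1 and 93.8 CPM in shRFP, a ratio of 3.69 [1.97 to 6.74]. Among cells thinned to equal UMIs, as described below, 3 of 89 shSdc1 cells and 10 of 553 shRFP cells of cluster 6 held Rsad2. In cluster 5 it was 17 of 822 shSdc1 cells and 8 of 274 shRFP cells. Both Rsad2 ratios thus rest on few cells, and their brackets treat UMIs of the same cell as independent.

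Across the 11 clusters of the 3 classes, 31 members reached 20 UMIs in at least 1 cluster. Of these, 11 had a ratio above 1 in every cluster where they did. Some of the 11 were measured in few clusters, Ifit3b in 1, Cmpk2 and Usp18 in 3 and Ifit2 in 4. No share over all genes stands beside this count, so it does not set the members apart. Isg15, Bst2 and Ifi27l2a were measured in all 11 clusters and were above 1 in each. Their ratios ran over 1.003 to 6.38 for Isg15, 1.09 to 2.31 for Bst2 and 1.10 to 3.15 for Ifi27l2a. Ly6a and Zbp1 were above 1 in 10 of 10 clusters, Slfn2 in 7 of 11 and Ifi35 in 4 of 10. In DC cluster 11, which joined conventional DC 1 and DC 2 genes, 12 of 26 members were higher, beside 13.1% of genes, and in the migratory DC-like cluster 12 it was 2 of 6, beside 14.5%.

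**Figure D4:**
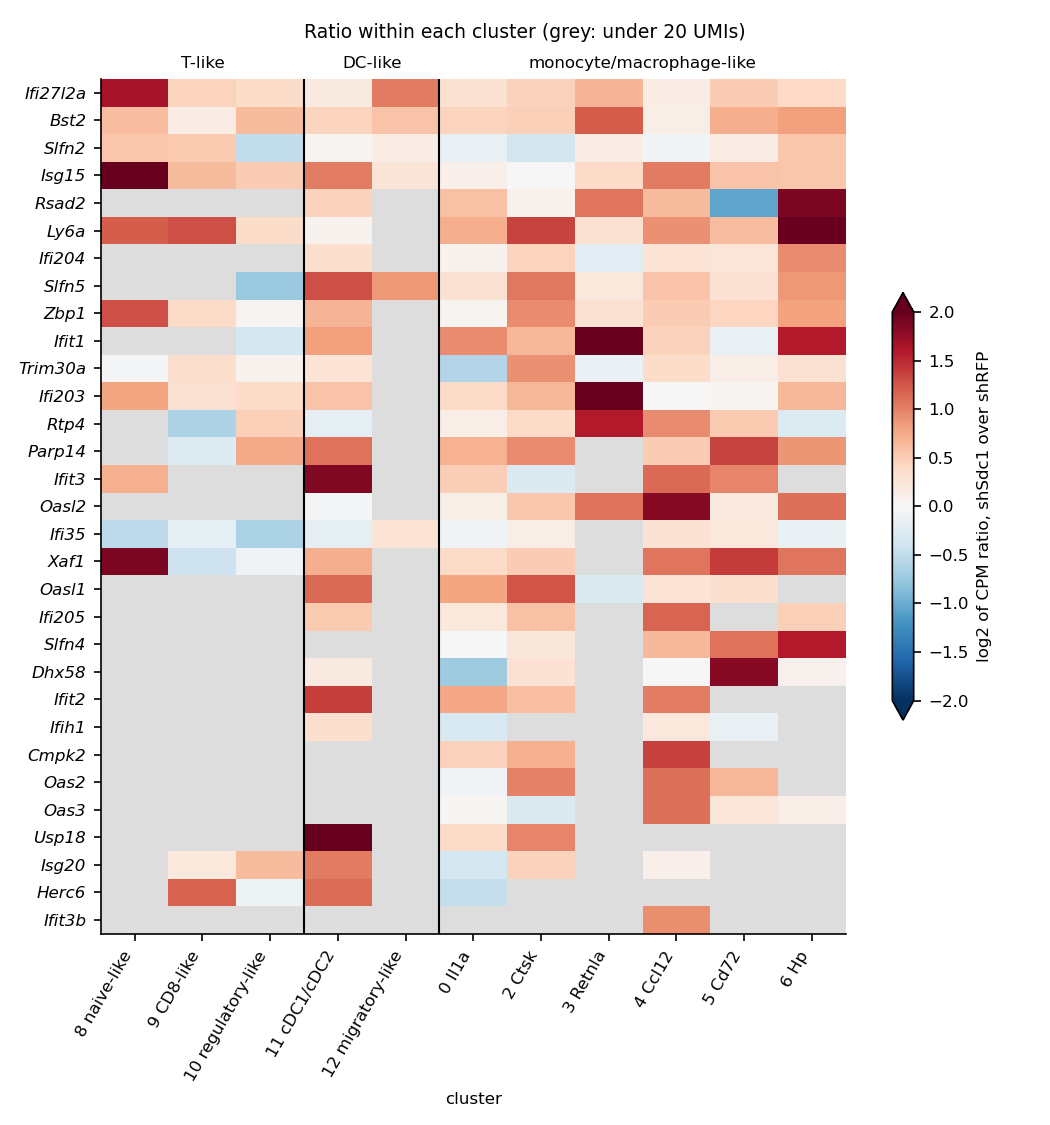
Log2 of the CPM ratio, shSdc1 over shRFP, of each member (rows) in each cluster of the 3 classes (columns), with red above and blue below 0 and grey under 20 UMIs in both libraries together. Isg15, Bst2 and Ifi27l2a are above 0 in all 11 columns, and Rsad2 is below 0 in cluster 5.

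Single cells were compared after thinning each to 300 UMIs, which left out the shallower cells, 310 T-like in shSdc1 and 230 in shRFP, 16 DC-like in shSdc1 and 12 in shRFP, and 161 monocyte/macrophage-like in shSdc1 and 95 in shRFP. Cells with 5 or more member UMIs made up 7.14% [5.15 to 9.60] in shSdc1 and 3.18% [1.92 to 4.92] in shRFP of DC-like cells. They were 5.10% [4.02 to 6.37] in shSdc1 and 2.85% [1.83 to 4.21] in shRFP of T-like cells and 7.62% [6.60 to 8.75] in shSdc1 and 6.35% [5.50 to 7.29] in shRFP of monocyte/macrophage-like cells. The intervals were apart in DC-like cells and overlapped in the other classes. Thinning was a random draw that was not repeated, and the intervals leave out the spread between draws. The DC-like shares here, and those of Isg15 below, include the DC sub-cluster led by C1qa and Apoe, which had the highest member sum. It was 8.68% of DC-like cells in shSdc1 and 4.92% in shRFP. How much it adds to the difference was not tested.

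An Isg15 UMI was seen in 9.11% [6.86 to 11.8] in shSdc1 and 4.35% [2.86 to 6.31] in shRFP among thinned DC-like cells, and in 15.8% in shSdc1 and 13.4% in shRFP before thinning. Among T-like cells it was 3.56% [2.66 to 4.66] in shSdc1 and 1.66% [0.911 to 2.77] in shRFP, and 5.23% in shSdc1 and 2.42% in shRFP before thinning. Among monocyte/macrophage-like cells it was 8.32% [7.25 to 9.49] in shSdc1 and 8.14% [7.18 to 9.19] in shRFP, and 15.7% in shSdc1 and 15.8% in shRFP before thinning. In DC-like cells the shares of both libraries thus lay closer before thinning than after it, and why was not tested. In B-like cells Isg15 had 0 UMIs in shSdc1 and 1 in shRFP, over 79 cells in shSdc1 and 95 in shRFP. Their median was 518 UMIs per cell in shSdc1 and 363 in shRFP. These cells held only 65207 UMIs in shSdc1 and 41600 in shRFP, too few for such counts to gauge free RNA. The 14 macrophage markers summed there to 2668 CPM in shSdc1 and 2788 CPM in shRFP.

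Most other members were detected more often in macrophages that held an Rsad2 UMI. In thinned monocyte/macrophage-like cells, 108 cells of shSdc1 and 154 of shRFP had an Rsad2 UMI. Ifit1 was detected in 21.3% of the shSdc1 cells with Rsad2 and 1.81% of those without it, and in 26.0% of the shRFP cells with Rsad2 and 1.43% of those without. Isg15 was detected in 28.7% of the shSdc1 cells with Rsad2 and 7.37% without, and in 46.1% of the shRFP cells with Rsad2 and 6.06% without. Ly6a was detected in 6.48% of shSdc1 cells with Rsad2 and 5.86% without, against 8.44% and 2.25% in shRFP.

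Of the 31 other members, 28 were more frequent in cells with Rsad2 in both libraries, and for 18 the intervals were apart in both. Dhx58, Herc6 and Oas2 were the exceptions. Inside cluster 0, cells with Rsad2 held a mean of 4.61 UMIs of other members in shSdc1 and 4.94 in shRFP, against 1.67 in shSdc1 and 1.34 in shRFP without it. In each of the other macrophage clusters the mean was likewise higher in cells with Rsad2 in both libraries. Some of these means rest on very few cells with Rsad2. Cluster 3 had 4 in shSdc1 and 2 in shRFP, and cluster 6 had 3 in shSdc1, too few to be read singly. In T-like cells only 4 cells of each library had an Rsad2 UMI, too few for such shares.

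**Figure D5:**
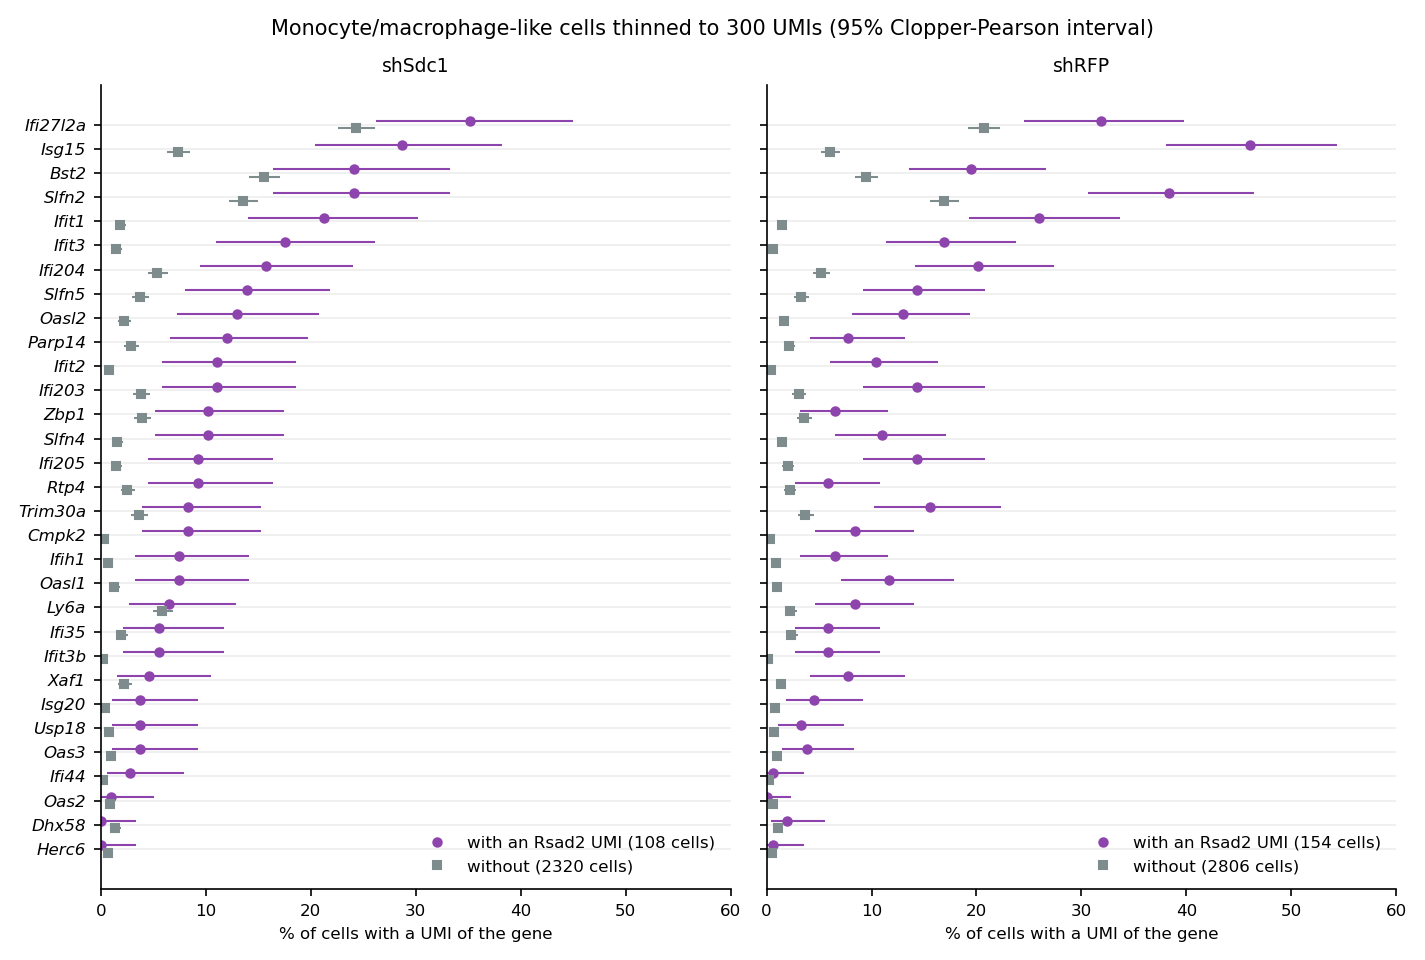
Percent of monocyte/macrophage-like cells, thinned to 300 UMIs, with a UMI of each member, among cells with (purple circles) and without (grey squares) an Rsad2 UMI, in shSdc1 (left) and shRFP (right), with 95% Clopper-Pearson intervals. Ifit1, Ifit3 and Isg15 are apart between both sets of cells in both libraries, and Dhx58 and Herc6 are not.

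Upstream of the members, Ifnb1 was the 1 of 17 type I interferon genes with any UMI. In monocyte/macrophage-like cells it had 50 UMIs (23.5 CPM) in shSdc1 and 31 UMIs (12.0 CPM) in shRFP, a ratio of 1.97 [1.23 to 3.19]. The UMIs lay in 17 cells of shSdc1 (0.657% of the class) and 20 of shRFP (0.655%), with up to 11 in 1 cell of shSdc1 and 7 in 1 of shRFP. Cells with an Ifnb1 UMI had 14075 CPM of the 32 genes in shSdc1 and 7305 CPM in shRFP, against 4592 CPM in shSdc1 and 4316 CPM in shRFP in cells without one. Ifng, the gene of interferon gamma, had 217 UMIs (203 CPM) in shSdc1 and 134 UMIs (238 CPM) in shRFP in T-like cells, a ratio of 0.852 [0.683 to 1.06].

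Receptor and kinase genes were mostly within the fold, and Irf7 was past it in DC-like and monocyte/macrophage-like cells. Of 7 receptor and kinase genes 0 were higher and 0 lower in DC-like cells, 0 and 0 in monocyte/macrophage-like cells, and 0 and 1 in T-like cells, where Ifngr2 had 9 UMIs in shSdc1 and 11 in shRFP. Irf7, which is itself interferon-induced and amplifies the response, had 125 UMIs in shSdc1 and 47 in shRFP in DC-like cells, a ratio of 2.65 [1.88 to 3.78], and a ratio of 1.52 [1.30 to 1.77] in monocyte/macrophage-like cells. Among other transcription factors of the pathway, Stat2 had a ratio of 1.56 [1.01 to 2.46] and Irf3 of 1.92 [0.972 to 3.96] in DC-like cells. In T-like and monocyte/macrophage-like cells both were within the fold, and Irf1 and Irf9 were within it in all 3 classes. Of 4 inhibitors Socs3 was lower in DC-like cells, with 82 UMIs in shSdc1 and 162 in shRFP, a ratio of 0.504 [0.381 to 0.661].

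Related genes outside the set were described by the same fold. Of 37 other type I interferon-induced genes, 11 of 32 measured were higher and 3 lower in DC-like cells. In T-like cells it was 3 of 32 and 0, and in monocyte/macrophage-like cells 2 of 36 and 2. Their UMIs together had a ratio of 0.998 [0.951 to 1.05] in DC-like and 0.978 [0.954 to 1.003] in monocyte/macrophage-like cells. In T-like cells it was 1.10 [1.05 to 1.16]. In DC-like cells Parp12 had 39 UMIs in shSdc1 and 14 in shRFP, a ratio of 2.77 [1.47 to 5.53], while Ifitm1, which blocks viral entry, was lower with 119 UMIs in shSdc1 and 327 in shRFP and a ratio of 0.362 [0.291 to 0.448]. Of 21 genes that prefer interferon gamma, 10 of 19 measured were higher and 0 lower in monocyte/macrophage-like cells, 5 of 17 and 1 in DC-like cells, and 4 of 18 and 2 in T-like cells. Over all measured genes 14.1% were higher and 8.64% lower in monocyte/macrophage-like cells. In DC-like cells it was 11.7% and 11.8%, and in T-like cells 12.6% and 7.32%. The chemokine Cxcl9 had 688 UMIs in shSdc1 and 299 in shRFP in monocyte/macrophage-like cells, a ratio of 2.81 [2.45 to 3.23], and the GTPase Iigp1 had 79 UMIs in shSdc1 and 30 in shRFP, a ratio of 3.21 [2.09 to 5.07].

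Members with and without the ISRE core in their promoter window had similar median ratios in monocyte/macrophage-like cells. There the median log2 ratio was -0.02 over 11 measured members with the core and 0.02 over 12 without it. In DC-like cells it was 0.53 over 10 with the core and 0.71 over 10 without, and in T-like cells 0.30 over 9 and 0.19 over 7. Isg15, with 3 cores in the sequence above, was past the fold in DC-like and T-like cells. Rsad2, with 1, was past it in neither. Oas3, also with 1, was past it in both (1.59 and 1.65), and Ifit1, with 2, in neither (1.24 and 0.886).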

How the data were processed

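Live CD45+ cells were profiled with the 10x 3' v3.1 chemistry, per the labels' protocols. The authors deposited unnormalized UMI counts for each barcode. Cell Ranger 6.1.1 is named per the file headers and mm10 per the submitters' processing notes; the annotation release was not given in those sources. GENCODE M21 held 31107 of 31253 feature identifiers.

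Of 5902 barcodes in shSdc1 and 5786 in shRFP, those with at least 200 genes and under 10% mitochondrial UMIs were kept, 5576 in shSdc1 and 5225 in shRFP. Scrublet's own threshold marked 0 doublets in shSdc1 and 1 in shRFP and was judged not to work. The highest-scoring 263 barcodes in shSdc1 and 242 in shRFP (0.8% per 1000 barcodes) were left out instead. Kept cells held 4014132 UMIs in shSdc1 and 3850273 in shRFP. Clustering (scanpy 1.11.5) used 10000 UMIs per cell, 2000 variable genes, 30 components, 15 neighbours and Leiden resolution 1, without 135 interferon genes. DC-like cells were clustered again at resolution 0.6. Each cluster was named by the marker list with the top mean log2 fold, if that was 0.5 or more with 3 or more markers at 2-fold, and clusters 0, 2, 3 and 6 were named only when set against the other named classes. The members and gene lists were chosen with earlier results of these data known, and 1 gene of the pathway lists is not reported here.

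UMIs were summed per class and library as CPM with exact Poisson intervals. Ratios carry exact conditional binomial intervals and shares exact Clopper-Pearson intervals, all at 95% and for counting error only. A gene at 0 in 1 library was bounded against a floor of 3 counts. Members with at least 20 UMIs could be named, with full values for the 8 past the fold whose interval bound lay farthest from 1 and the 5 with the highest CPM per class. Other members and cluster values given were chosen after their values were seen. Scripts were tested on simulated data. Alternatives were TMM factors (edgeR 4.0.16), median-of-ratios factors (DESeq2 1.42.0), other minimum UMIs or genes, no doublet removal, interferon genes in clustering, another seed, clusters weighted alike, and cells or clusters left out.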

Additional observations from a re-analysis of the deposited data

Results flagged for a closer look

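The ratio of Ifit2, shSdc1 over shRFP, was past the fold in opposite directions in 2 classes. It was 0.364 in T-like cells, with 9 UMIs in shSdc1 and 13 in shRFP, and 2.80 in DC-like cells, with 31 UMIs in shSdc1 and 11 in shRFP. The difference between the classes was not tested, as each group is 1 library. In DC-like cells 1 cell held 45.5% of the shRFP UMIs.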

How the results depend on the processing

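No paired analysis was possible because each group is 1 library. The median log2 ratio of the members stayed above 0 in each class under every alternative run, within 0.17 to 0.53 in T-like, 0.36 to 0.54 in DC-like and 0.09 to 0.52 in monocyte/macrophage-like cells. Counts of members past the fold moved more. In T-like cells 0 were lower with at least 100 UMIs, 3 with no minimum, 0 with at least 500 genes per cell and 0 without cells with macrophage marker UMIs. With at least 500 genes per cell 3 were higher there, and Isg20 (0.915) and Oas3 (0.337) reversed. In DC-like cells 2 were higher with at least 100 UMIs, where fewer genes were measured, and 1 was lower with no minimum, with another seed, with clusters weighted alike and without the top cell of each library. In monocyte/macrophage-like cells 2 were lower with TMM or median-of-ratios factors and without the Chil3-led cluster 6, and 5 were higher without doublet removal. With at least 500 genes per cell 1 was higher and 5 lower there. At that minimum the classes themselves differed. A cluster led by Ifit genes (99 cells in shSdc1 and 28 in shRFP) and 2 others had no name, the Chil3-led cells took the neutrophil name, and Cd8a-high cells took the NK name. With clusters weighted alike 12 were higher and 0 lower, and Ifi205 reversed to 1.31. The cause was not tested, except that weighting by construction removes the unlike cluster shares. Leaving out macrophage-marker cells, the DC sub-cluster or cluster 6 was chosen after seeing the data. The low counts of several members in T-like and DC-like cells limit what their ratios can show.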

Other observations

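The smaller classes also held RNA of the 32 genes. In NK-like cells (268 in shSdc1 and 85 in shRFP) they summed to 1880 CPM in shSdc1 and 1009 CPM in shRFP, a ratio of 1.86 [1.35 to 2.63], and 5 of 6 measured members were higher, beside 20.5% of genes, and 0 lower, beside 14.5%. In neutrophil-like cells (26 in shSdc1 and 38 in shRFP) they summed to 10311 CPM in shSdc1 and 5465 CPM in shRFP, a ratio of 1.89 [1.46 to 2.44]. In plasmacytoid DC-like cells (34 in shSdc1 and 27 in shRFP) they summed to 6147 CPM in shSdc1 and 6039 CPM in shRFP, a ratio of 1.02 [0.766 to 1.35], and Bst2, a known surface marker of these cells in mice, gave 52 UMIs in shSdc1 and 59 in shRFP of them. In B-like cells (79 in shSdc1 and 95 in shRFP) they summed to 2346 CPM in shSdc1 and 1827 CPM in shRFP. These classes hold few cells, and the brackets cover counting error only. NK-like cells held 149993 UMIs in shSdc1 and 42607 in shRFP, so members reached 20 UMIs mostly through shSdc1. The 5 higher members there had between 0 (Trim30a) and 5 (Slfn2) UMIs in shRFP, and the intervals of Ly6a and Slfn2 reached below 1. Their count thus carries little weight.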
